A study of Mus musculus with 24 samples.

Results

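The Ifi200 family and the inflammatory caspases were followed as 8 listed mouse genes: Ifi202b, Ifi203, Ifi204, Ifi205, Aim2, Casp1, Casp4 and Casp12. Members were the probe sets whose annotated symbol is one of these genes alone. This gave 8 of the 34945 probe sets with a single symbol, which represent 7 of the 8 genes of 18193 in all: Casp12 has a pair, and Ifi205 has none of its own. A further 6 probe sets list a member together with other genes and are described apart, because they cannot tell near-identical copies from each other. The genes were chosen on measured values, their differences between Fz4-/- and wild type cells in these arrays, so each comparison of the genotypes below is a description and carries no test.

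The retinal endothelial cell lines came from adult mice, of both genders, whose background was C57Bl6/129 mixed. The Fz4-/- lines lack frizzled-4, to which the secreted protein Norrin binds, and the others are wild type. All lines also carry the Immorto-mouse transgene, a temperature-sensitive SV40 large T antigen under a promoter that responds to gamma interferon; they were expanded with gamma interferon and moved to 37 °C without it before RNA was taken. Each of 8 groups had 3 arrays. Fz4-/- cells and wild type cells were each plated for 6 hours on Matrigel, an extract rich in basement membrane proteins, having been kept in 1% serum for 24 hours; grown on gelatin; co-cultured with human HEK293 cells that express Norrin; or co-cultured with control HEK293 cells. The co-culture RNA was a mouse and human mixture in roughly equal amounts, so probe sets also met human transcripts there and a level of mouse cells and their number cannot be told apart. The labels do not give the number of lines, whether the co-cultured lines were those grown alone, or whether replicates were separate cultures, so a p-value reflects the spread between arrays, which may be technical.

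Ifi200 proteins are interferon-inducible and carry HIN domains that bind DNA. Aim2 binds double-stranded DNA in the cytosol and, through the adaptor ASC (Pycard), activates caspase-1, which cleaves the precursors of the interleukins IL-1β and IL-18 and the pore-forming protein gasdermin D. Casp4 encodes mouse caspase-11, which responds to bacterial lipopolysaccharide in the cytosol, and Casp12 encodes a further member of the inflammatory caspases. The product of Ifi202b lacks the pyrin domain through which Aim2 recruits its adaptor, and is known as an antagonist of Aim2. The strains behind these lines are known to differ at both loci: C57BL/6 mice make little or no Ifi202b transcript, and many 129 substrains carry a Casp4 defect that prevents the protein from being made. The lines are of mixed background and their alleles at these loci are not given, so the effect of the Fz4 genotype and of strain alleles that differ between the lines cannot be told apart.

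The windows around the annotated starts of 4 members are printed because their transcripts showed the patterns that the values below turn on: Ifi202b, high in wild type cells grown alone; Casp1, high in Fz4-/- cells; its neighbour Casp4, which differed in the other direction in co-culture; and Casp12. The sequences are those of RefSeq on GRCm38.p6, a C57BL/6J assembly, from 250 bases before to 50 bases after the start. They lie at chr1:173982795-173983094 on the minus strand, and at chr9:5298267-5298566, chr9:5308599-5308898 and chr9:5345226-5345525 on the plus strand. Capitals mark matches, on either strand, to the core of an interferon-stimulated response element (GAAANNGAAA), a gamma-activated site (TTCNNNGAA) or an NF-kB site core (GGGANNNNCC).
Ifi202b: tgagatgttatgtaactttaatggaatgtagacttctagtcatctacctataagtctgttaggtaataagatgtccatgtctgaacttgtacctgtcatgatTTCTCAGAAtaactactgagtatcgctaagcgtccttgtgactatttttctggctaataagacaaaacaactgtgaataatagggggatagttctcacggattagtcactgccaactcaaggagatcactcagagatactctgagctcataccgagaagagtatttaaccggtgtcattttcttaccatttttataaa
Casp1: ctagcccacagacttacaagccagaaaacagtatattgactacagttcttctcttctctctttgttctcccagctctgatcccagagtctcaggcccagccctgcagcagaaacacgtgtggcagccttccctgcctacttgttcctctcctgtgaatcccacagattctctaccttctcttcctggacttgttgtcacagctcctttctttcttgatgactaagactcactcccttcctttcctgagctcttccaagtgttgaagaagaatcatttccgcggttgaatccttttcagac
Casp4: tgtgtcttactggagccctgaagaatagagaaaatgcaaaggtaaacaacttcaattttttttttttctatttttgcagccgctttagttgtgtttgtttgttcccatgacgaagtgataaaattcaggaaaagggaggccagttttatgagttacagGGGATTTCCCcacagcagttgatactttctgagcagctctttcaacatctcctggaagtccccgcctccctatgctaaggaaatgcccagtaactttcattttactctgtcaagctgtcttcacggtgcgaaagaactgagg
Casp12: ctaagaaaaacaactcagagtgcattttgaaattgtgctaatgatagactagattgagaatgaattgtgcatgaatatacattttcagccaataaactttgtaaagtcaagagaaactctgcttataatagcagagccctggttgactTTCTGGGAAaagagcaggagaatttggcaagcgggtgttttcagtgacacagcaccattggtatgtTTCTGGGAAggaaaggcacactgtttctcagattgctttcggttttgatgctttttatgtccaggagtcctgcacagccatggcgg
The Ifi202b window held a gamma-activated site, TTCTCAGAA, at -148 to -140 from the start. The Casp4 window held an NF-kB site core, GGGATTTCCC, at -92 to -83, and the Casp12 window held the gamma-activated site TTCTGGGAA at both -102 to -94 and -36 to -28. The Casp1 and Aim2 windows held none of these letters. Among the other members, the Ifi205 window held a GAAATTGAAA at -134 to -125 and a minus-strand match at 24 to 33, and of the 2 annotated Ifi203 windows the second held GAAATCGAAA at -35 to -26 and GGGAGGAGCC at -10 to -1. Of all 32851 promoter windows of this length, 3.44% held the first motif, 8.3% the second and 20.7% the third, so a match to any but the first is frequent by letters alone. No matches overlapped another motif in the printed windows. A window was found for 7 of the 8 genes.

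The deposited values are on a log2 scale and their distributions fall into 3 sets: array medians were 5.02 to 5.10 in the 12 arrays of cells grown alone, 3.21 to 3.31 in the Fz4-/- co-cultures and 3.44 to 3.52 in the wild type co-cultures. Genotype and array set therefore coincide in co-culture and cannot be told apart; the median Fz4-/- minus wild type difference over all probe sets was -0.20 with Norrin-expressing cells and -0.19 with control cells, against 0.02 on Matrigel and 0.01 on gelatin. Fzd4 itself, read as a check of the labels, was lower in Fz4-/- by -3.74 ± 0.22 (SE) on Matrigel and -3.42 ± 0.10 with control cells on probe set 1419301_at. Its probe set 1434756_at was lower by -2.80 ± 0.12 and -1.88 ± 0.16. Its dim probe set 1449416_at was lower by -1.52 ± 0.16 and by only -0.26 ± 0.13. The endothelial markers Pecam1 and Cdh5 were high in cells grown alone, with group means of 11.39 to 11.86 and 10.89 to 11.08. The leukocyte marker Ptprc lay between 2.54 and 3.10 there, where the lowest 5% of probe sets of an array ended at 2.49 to 2.58. On the fixed myeloid list of 14 genes the mean level was 4.86 to 5.02 in Fz4-/- arrays and 5.12 to 5.20 in wild type arrays on Matrigel, with Adgre1 and Tyrobp at 3.44 to 4.08 and Cd68, which other cells also express, at 8.01 to 10.11.

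**Figure D1:**
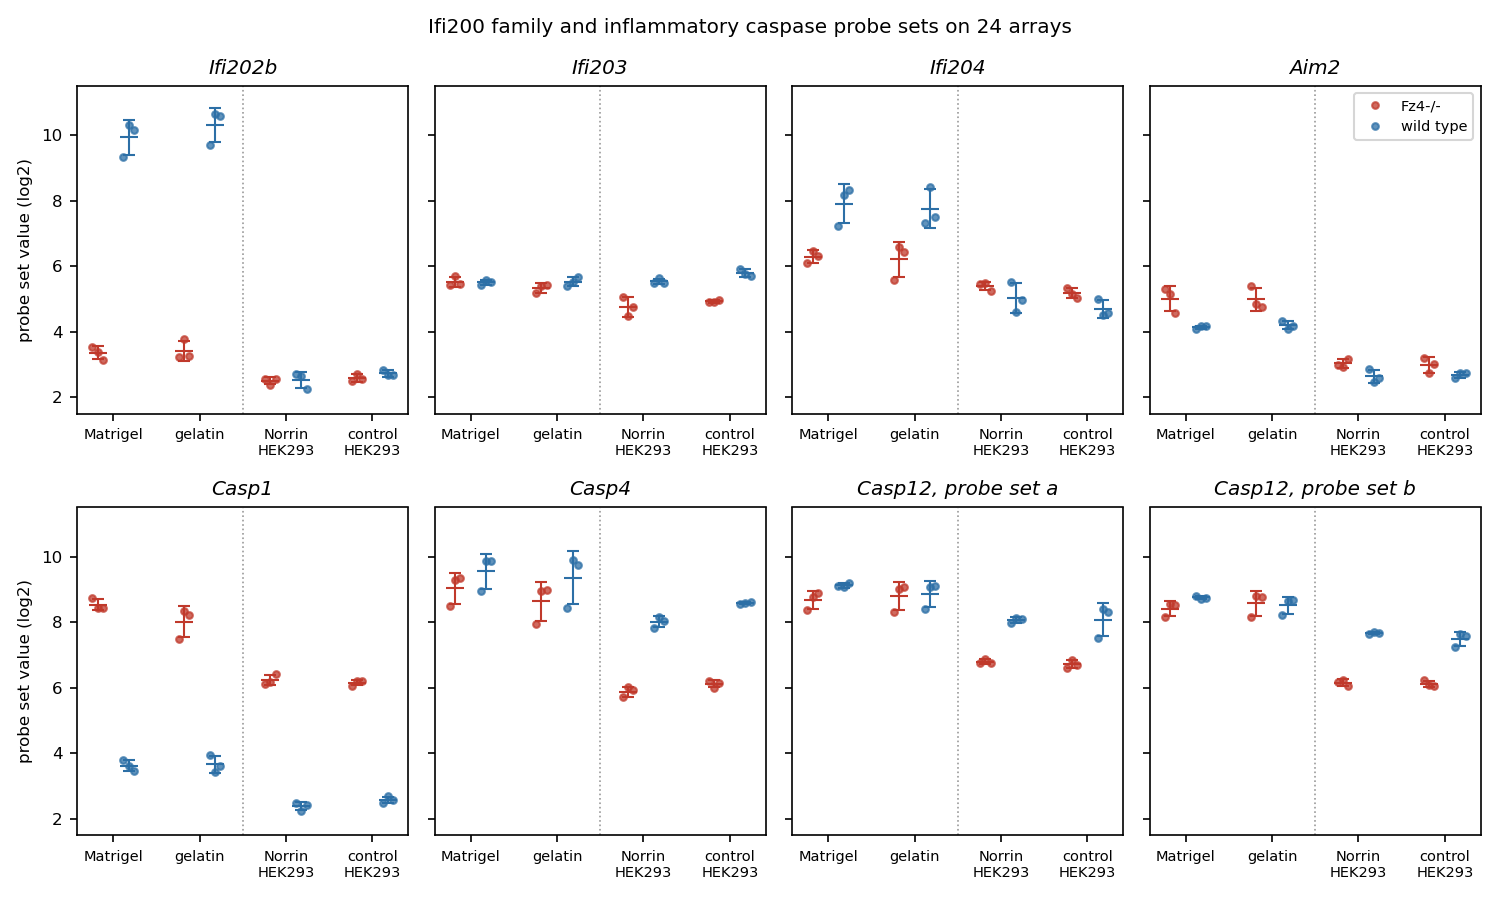
Log2 value of each member probe set on each of the 24 arrays (dots), with group mean and SD (bars), for Fz4-/- (red) and wild type (blue) cells in 4 cultures. The dotted line separates cells grown alone from co-cultures, whose values are not on a common scale with them; Casp12 probe set a is 1418981_at and b is 1449297_at. Ifi202b is high only in wild type cells grown alone, while Casp1 is higher in Fz4-/- cells in all 4 cultures.

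Among the Ifi200 genes, Ifi202b showed the widest separation in cells grown alone. Its values were 3.54, 3.39 and 3.13 on the Fz4-/- Matrigel arrays, against 9.33, 10.32 and 10.15 on the wild type ones. On gelatin they were 3.22, 3.76 and 3.24 in Fz4-/- cells, against 9.71, 10.64 and 10.57 in wild type cells. The groups lay far apart, and the Fz4-/- arrays sat in the low part of their arrays (percentiles 19.3 to 32.4) while the wild type arrays sat at percentiles 90.3 to 96.1. The Fz4-/- minus wild type difference was -6.58 ± 0.29 on Matrigel and -6.90 ± 0.29 on gelatin (SE, n = 3 arrays per group); with Fz4-/- near the floor of the scale, it is a difference against a level that the array may not resolve.

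In co-culture Ifi202b was near the floor in both genotypes. With Norrin-expressing cells it read 2.57, 2.38 and 2.55 in Fz4-/- and 2.70, 2.65 and 2.25 in wild type, and with control cells 2.48, 2.71 and 2.56 in Fz4-/- and 2.84, 2.67 and 2.66 in wild type. The genotypes overlapped, and the wild type arrays now lay at percentiles 10.3 to 32.5. The probe set that Ifi202b shares with LOC100044068 showed the same order: it averaged 3.14 ± 0.16 in Fz4-/- and 10.29 ± 0.51 in wild type on Matrigel, but 1.77 ± 0.09 in Fz4-/- and 1.96 ± 0.14 in wild type with control HEK293 cells (SD, n = 3). In the wild type co-cultures Pecam1 read 7.71 to 7.89 with Norrin-expressing cells and 6.51 to 7.39 with control cells, and Cdh5 read 6.41 to 7.14 and 5.77 to 5.86. The mean of the 12 endothelial markers was 7.23 and 6.51 in these cultures, against 10.66 on Matrigel and 10.45 on gelatin. The part of the array set, of human RNA and of the line used in this loss of signal was not tested.

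Ifi204, a family member linked to interferon signalling and cell differentiation, was also lower in Fz4-/- cells grown alone. It read 6.10, 6.47 and 6.31 in Fz4-/- and 7.24, 8.17 and 8.32 in wild type on Matrigel, and 5.59, 6.58 and 6.45 in Fz4-/- and 7.33, 8.43 and 7.49 in wild type on gelatin. The genotypes did not overlap in either culture, with differences of -1.62 ± 0.35 and -1.54 ± 0.35. In co-culture the order turned. Ifi204 read 5.45, 5.47 and 5.24 in Fz4-/- and 5.50, 4.60 and 4.95 in wild type with Norrin-expressing cells, where the genotypes overlapped, and 5.34, 5.14 and 5.04 in Fz4-/- and 5.00, 4.51 and 4.58 in wild type with control cells, where they did not. The co-culture differences were 0.37 ± 0.19 and 0.48 ± 0.19.

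Ifi203, measured by a probe set of its own, did not separate the genotypes in cells grown alone. It lay between 5.17 and 5.69 on the 6 Fz4-/- arrays and between 5.40 and 5.66 on the 6 wild type arrays. In co-culture it was lower in Fz4-/-, at 5.06, 4.46 and 4.75 against 5.48, 5.63 and 5.49 in wild type with Norrin-expressing cells, and at 4.90, 4.91 and 4.97 against 5.91, 5.77 and 5.69 in wild type with control cells. The 3 probe sets shared between Ifi203, the Ifi203-ps pseudogene and uncharacterised loci gave another picture. They were lower in Fz4-/- by -1.12 to -3.20 on gelatin and by -1.22 to -2.97 on Matrigel, the widest being 1451567_a_at with means of 5.88 ± 0.57 in Fz4-/- and 8.85 ± 0.65 in wild type on Matrigel (SD, n = 3). Probe sets for Ifi203 thus disagreed, and which copy each reads cannot be settled from these values.

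Ifi205 was reached only through shared probe sets. The set annotated to Ifi211 and Ifi205 averaged 9.43 ± 0.26 in Fz4-/- and 10.71 ± 0.71 in wild type on Matrigel, and 9.82 ± 0.46 in Fz4-/- and 10.85 ± 0.66 in wild type on gelatin (SD, n = 3). The set that also lists Mndal and Ifi204 averaged 7.65 ± 0.27 in Fz4-/- and 9.19 ± 0.73 in wild type on Matrigel. Both were also lower in Fz4-/- in co-culture, by -0.72 and -0.68 with Norrin-expressing cells and by -1.33 and -1.19 with control cells.

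Aim2, the DNA sensor of the family, went the other way. It read 5.29, 5.15 and 4.57 in Fz4-/- and 4.09, 4.16 and 4.17 in wild type on Matrigel, and 5.40, 4.83 and 4.74 in Fz4-/- and 4.32, 4.09 and 4.18 in wild type on gelatin. Every Fz4-/- array lay above every wild type array of its culture, also in co-culture, where Aim2 read 2.99, 2.93 and 3.18 in Fz4-/- and 2.86, 2.47 and 2.59 in wild type with Norrin-expressing cells, and 3.21, 2.74 and 3.00 in Fz4-/- and 2.57, 2.73 and 2.73 in wild type with control cells. The differences were 0.86 ± 0.19, 0.79 ± 0.19, 0.39 ± 0.13 and 0.31 ± 0.13 in that order of cultures. Both co-culture gaps rest on a narrow margin between the lowest Fz4-/- and the highest wild type array. These read 2.93 and 2.86 with Norrin-expressing cells, and 2.74 and 2.73 with control cells. Wild type Aim2 lay low in its arrays there, at percentiles 21.0 to 32.4 with Norrin-expressing cells and 22.9 to 29.6 with control cells.

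Casp1 was the caspase with the widest difference. It read 8.73, 8.44 and 8.44 in Fz4-/- and 3.79, 3.61 and 3.46 in wild type on Matrigel, and 7.49, 8.34 and 8.23 in Fz4-/- and 3.95, 3.42 and 3.61 in wild type on gelatin. In co-culture it read 6.11, 6.17 and 6.40 in Fz4-/- and 2.47, 2.25 and 2.42 in wild type with Norrin-expressing cells, and 6.06, 6.19 and 6.19 in Fz4-/- and 2.49, 2.68 and 2.55 in wild type with control cells. The genotypes were apart in all 4 cultures, Fz4-/- lying at percentiles 73.8 to 87.3 of its arrays and wild type at percentiles 10.9 to 34.9. The differences were 4.92 ± 0.21 on Matrigel, 4.36 ± 0.21 on gelatin, 3.84 ± 0.11 with Norrin-expressing cells and 3.57 ± 0.11 with control cells. Wild type Casp1 lay near the floor of the scale, so these too are differences against a level that the array may not resolve.

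Casp4, which encodes caspase-11 and lies next to Casp1, did not share that pattern. On Matrigel it read 8.49, 9.29 and 9.33 in Fz4-/- and 8.94, 9.88 and 9.85 in wild type, and on gelatin 7.95, 8.96 and 8.99 in Fz4-/- and 8.42, 9.91 and 9.75 in wild type, so the genotypes overlapped in both. In co-culture Casp4 was lower in Fz4-/-. It read 5.70, 6.01 and 5.91 in Fz4-/- and 7.83, 8.16 and 8.04 in wild type with Norrin-expressing cells, and 6.20, 6.00 and 6.14 in Fz4-/- and 8.56, 8.57 and 8.62 in wild type with control cells. The differences were -0.52 ± 0.42, -0.73 ± 0.42, -2.13 ± 0.11 and -2.47 ± 0.11 in the order Matrigel, gelatin, Norrin-expressing and control cells. A defect in making the protein, such as that known in 129 substrains, need not show in a transcript level, and protein was not measured.

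Both Casp12 probe sets were at like levels in the genotypes on gelatin and lower in Fz4-/- in co-culture. On gelatin 1418981_at averaged 8.79 ± 0.42 in Fz4-/- and 8.85 ± 0.39 in wild type, and 1449297_at 8.58 ± 0.37 in Fz4-/- and 8.51 ± 0.26 in wild type (SD, n = 3). On Matrigel the wild type arrays lay just above the Fz4-/- ones, with differences of -0.45 ± 0.23 and -0.35 ± 0.18. With Norrin-expressing cells the probe sets averaged 6.80 ± 0.08 and 6.16 ± 0.09 in Fz4-/-, against 8.06 ± 0.08 and 7.67 ± 0.04 in wild type. The co-culture differences were -1.27 ± 0.18 and -1.51 ± 0.12 with Norrin-expressing cells, and -1.36 ± 0.18 and -1.36 ± 0.12 with control cells.

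Counted over the 8 probe sets, the Fz4-/- and wild type arrays did not overlap for 6 on Matrigel (2 higher and 4 lower in Fz4-/-), where 30.2% of all probe sets did not overlap (15.6% higher, 14.5% lower), and for 4 on gelatin (2 and 2), where the share was 31.2% (16.5% and 14.7%). The counts were 6 with Norrin-expressing cells (2 and 4), against 56.4% of all (13.7% and 42.8%), and 7 with control cells (3 and 4), against 56.8% (14.4% and 42.4%). Nothing is read from these counts, since the genes were listed for this contrast. The gelatin count rests on wild type replicate 1: it was 7 without that array, when 45.7% of all probe sets did not overlap. The order from low to high of the 4 groups grown alone put Fz4-/- on gelatin and on Matrigel together at the low end for Ifi202b and Ifi204, and wild type on both at the low end for Casp1 and Aim2; within a genotype the neighbours in each of these orders overlapped, save for Casp1, whose Fz4-/- Matrigel arrays all lay above its Fz4-/- gelatin arrays.

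**Figure D2:**
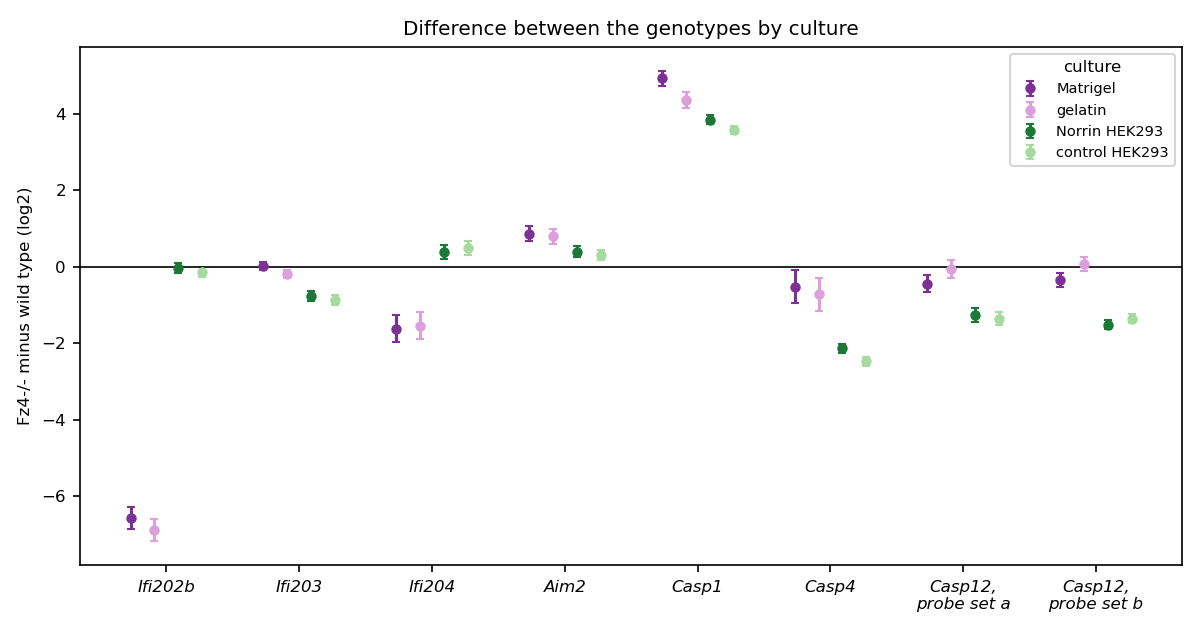
Difference of the Fz4-/- and wild type group means on the log2 scale (dots, with limma's SE as bars) for each member probe set in 4 cultures. Casp1 lies between 3.57 and 4.92 in every culture, Ifi202b moves to near 0 in co-culture, and Casp4 and both Casp12 probe sets are further below 0 in co-culture than in cells grown alone.

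Replicate 1 of the single cultures was the lowest array of its group for some members, as for Ifi204 in all 4 groups, for Casp4 in all 4 and for Ifi202b in both wild type groups. It was the highest for Aim2 in both Fz4-/- groups and wild type on gelatin (5.29 and 5.40, and 4.32). It was also the highest for Casp1 in Fz4-/- on Matrigel (8.73) and in both wild type groups (3.79 and 3.95). The replicate 1 arrays were lowest for a fixed list of 23 measured type I interferon response genes, with means of 7.68, 8.18 and 8.15 in Fz4-/- and 9.12, 10.42 and 10.39 in wild type on Matrigel, and 7.52, 8.22 and 8.22 in Fz4-/- and 9.27, 10.58 and 10.56 in wild type on gelatin, in order of replicate number. That list was also lower in Fz4-/- cells grown alone, with 21 of 23 genes not overlapping and lower on Matrigel and 20 of 23 on gelatin, against 16.3% and 16.6% of all genes. The 23 measured gamma interferon response genes were lower for 13 and 12. In co-culture 9 of the type I genes were higher in Fz4-/- and 10 lower with Norrin-expressing cells, against 13.7% and 43.2% of all genes, and 7 higher and 11 lower with control cells, against 14.6% and 45.4%. Of the 23 gamma interferon genes 22 and 23 were lower in these cultures. The part of either interferon response in the members' values was not tested.

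Of 11 other Ifi200 genes on a fixed list, 4 were measured, and all 4 had lower means in Fz4-/- cells grown alone. Ifi207 differed by -2.92 on Matrigel and -3.22 on gelatin, Ifi213 by -2.64 and -2.64, Mndal by -1.62 and -1.78, and Ifi209 by -1.03 and -1.41, and 2 of the 4 did not overlap between the genotypes on Matrigel and 2 on gelatin, where 16.3% and 16.6% of all genes were lower without overlap. Ifi209 turned in co-culture, like Ifi204: it averaged 5.20 ± 0.17 in Fz4-/- and 2.38 ± 0.22 in wild type with Norrin-expressing cells, and 5.42 ± 0.13 in Fz4-/- and 2.61 ± 0.19 in wild type with control cells (SD, n = 3), after 6.05 ± 0.64 in Fz4-/- and 7.08 ± 0.60 in wild type on Matrigel. Like Ifi202b, it was thus low in wild type cells in co-culture but not alone. Mndal stayed lower in Fz4-/- in co-culture, by -0.81 and -1.33.

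The differences in cells grown alone were also read in gene order along chromosome 1. Inside the Ifi200 cluster, 6 of 8 measured genes differed by more than 1 log2 in the same direction on Matrigel and gelatin, Aim2 and Ifi203 being the exceptions. Of the 6, Ifi202b and Ifi204 are members listed for this contrast, and Ifi213 and Ifi209 overlapped between the genotypes in both cultures. Among the 10 nearest measured genes before the cluster none passed that size in both cultures, though Dusp23 differed without overlap by 1.03 on Matrigel and 0.89 on gelatin. Among the 10 after the cluster only Exo1, a DNA exonuclease, passed it, at -1.43 and -1.36, also without overlap. On chromosome 9, Casp1 was the only one of the 3 caspases past that size; 0 of 8 genes before it and 2 of 10 after it were, the matrix metalloproteases Mmp13 (-1.28 and -1.57) and Mmp3 (-1.75 and -1.76). Around Fzd4 on chromosome 7 it was 1 of 10 on either side, Ctsc (-2.47 and -2.62) and Prss23 (1.18 and 1.24). Over all 18193 genes the share was 3.88%. Neither member locus lies on the chromosome of Fzd4. The part of gene position in these differences was not tested.

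**Figure D3:**
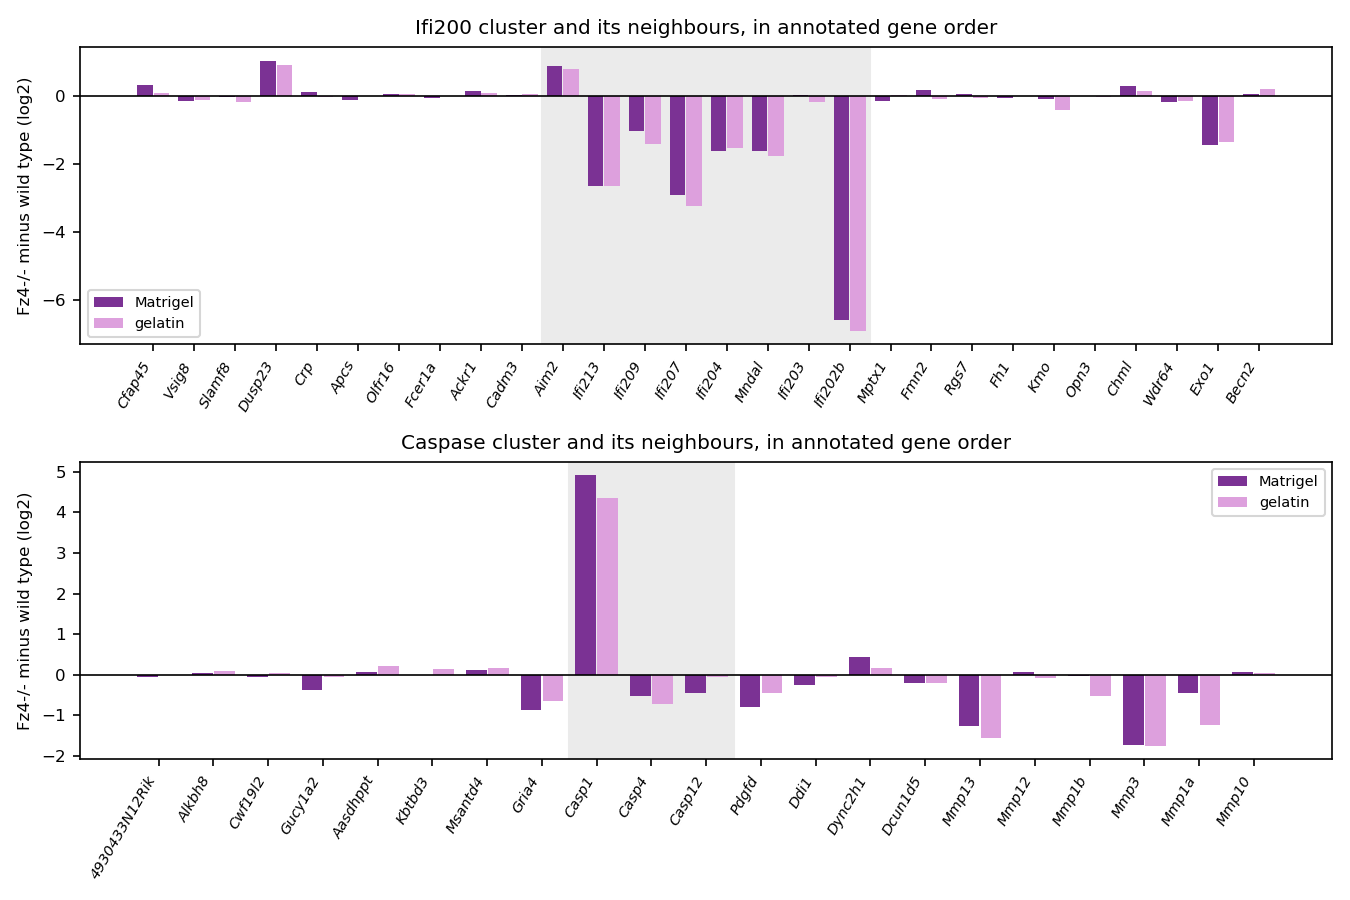
Fz4-/- minus wild type difference (log2) of each measured gene in annotated order around the Ifi200 cluster and the caspase cluster, on Matrigel (dark) and gelatin (light); the clusters are shaded. In the upper panel 6 of the 8 shaded genes are lower by more than 1, and in the lower panel Casp1 is the single tall bar, at 4.92 and 4.36.

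Over the 12 arrays of cells grown alone, the genes whose values ran most like those of a member were Arap2, BC034090 and Arhgdib for Ifi202b (Pearson's r 0.998, 0.998 and 0.996), Lpar2, Enpp4 and Ces2g for Ifi204 (0.980, 0.977 and 0.974), and Ctnnal1, Irak3 and Fam167b for Casp1 (0.994, 0.992 and 0.992). The arrays fall into 2 genotypes, so such an r mostly restates a shared genotype difference.

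Matrigel against gelatin was a comparison that did not choose the members, and none of them passed in it. The cells on Matrigel had also been kept in low serum and plated for a set time, which are not given for gelatin. Matrix, serum and time since plating therefore cannot be told apart. An effect or change with Matrigel, here and below, is that of this treatment as a whole. In limma's test, with Benjamini-Hochberg adjustment over all 34945 probe sets and a threshold of 0.05, 0 of 8 member probe sets passed in Fz4-/- cells, where 19.1% of all probe sets did, and 0 of 8 in wild type cells, where 17.2% did. At an unadjusted p under 0.05, for which the share of all probe sets was not counted, the counts were 1 and 0. The 1 was Casp1 in Fz4-/- cells, whose arrays at 8.73, 8.44 and 8.44 on Matrigel all lay above those at 7.49, 8.34 and 8.23 on gelatin, by 0.52 ± 0.21 (limma, adjusted p = 0.102). In wild type cells Casp1 differed by -0.04 ± 0.21 (limma, adjusted p = 0.924). The effects of Matrigel did not differ detectably between the genotypes for any member. At an adjusted p under 0.05 the count was 0 of 8, against 0.0172% of all probe sets. It was also 0 of 8 at an unadjusted p under 0.05, where the share of all probe sets was not counted. Casp1's difference of effects was 0.56 ± 0.29 (95% interval -0.08 to 1.20, adjusted p of 1).

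Casp4 in Fz4-/- cells averaged 9.04 ± 0.47 on Matrigel and 8.63 ± 0.59 on gelatin (SD, n = 3), and each numbered Matrigel array lay above the gelatin array of the same number. The difference of 0.41 ± 0.42 gave limma's adjusted p = 0.547. Deviations from the group means correlated between arrays of equal number, but the best match was the own number in only 4 of 6 cases. Whether the numbers mark pairs is thus not settled. With the replicate number as a block the Casp4 difference gave limma's adjusted p = 0.0268, in a fit that called 27.4% of all probe sets. The Ifi200 member probe sets stayed within the spread between replicates in both genotypes: Ifi202b differed by -0.06 ± 0.29 in Fz4-/- and -0.37 ± 0.29 in wild type cells, and Ifi204 by 0.09 ± 0.35 and 0.16 ± 0.35. Of the shared probe sets, that of Ifi202b (0.46 ± 0.26) and 1425008_a_at of Ifi203 (-0.54 ± 0.43) did not overlap in Fz4-/- cells (limma, adjusted p = 0.231 and 0.410). The other shared probe sets overlapped there, and all of them did in wild type cells. The 95% interval for Ifi204, not adjusted for the number of probe sets, reached from -0.67 to 0.85 in Fz4-/- cells and from -0.60 to 0.93 in wild type cells. Changes within these bounds were therefore not excluded with 3 arrays per group.

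The co-cultures address the response of the members to the ligand of frizzled-4. In wild type cells 1 of 8 member probe sets passed, against 7.17% of all probe sets, and it was lower with Norrin (2.74% of all were called lower). Casp4 read 7.83, 8.16 and 8.04 with Norrin-expressing cells, against 8.56, 8.57 and 8.62 with control cells, and the groups did not overlap. It fell by 0.58 ± 0.11 (limma, adjusted p = 0.00452). In Fz4-/- cells it read 5.70, 6.01 and 5.91 with Norrin-expressing cells, against 6.20, 6.00 and 6.14 with control cells, overlapping by a single array, and differed by -0.24 ± 0.11 (limma, adjusted p = 0.662). The 2 effects differed by 0.34 ± 0.16 (95% interval -0.0048 to 0.68, adjusted p = 0.475), so a response limited to wild type cells was not shown.

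The Casp4 call in wild type cells held without each array in turn (-0.49 to -0.65, adjusted p 0.00619 to 0.0189), but was lost when replicates 2 and 3 of each group, the nearest pair of arrays in most groups, were averaged into a single sample (-0.62, adjusted p = 0.0593). Other markers moved with it. Of the 12 endothelial markers 9 rose with Norrin-expressing cells in wild type cultures, where 4.82% of all genes rose and 3.51% fell, among them Cdh5 by 1.06 and Pecam1 by 0.74, and the mean of the list was 6.98 to 7.36 with Norrin-expressing cells against 6.31 to 6.62 with control cells. Of the 14 myeloid markers 0 rose and 1 fell, Cd68 by 2.29, with list means of 3.49 to 3.65 against 3.76 to 3.84 and Ptprc at 2.07 to 2.38 against 2.18 to 2.64. The part of these shifts in the Casp4 result was not tested.

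The other 7 member probe sets did not pass in wild type cells, ranging from -0.26 ± 0.13 for Ifi203 to 0.32 ± 0.19 for Ifi204, and 0 of 8 passed in Fz4-/- cells, where 0.197% of all probe sets did; 0 of 8 had an unadjusted p under 0.05 there either. For the difference between the effects in the genotypes, 0 of 8 passed at an adjusted p under 0.05, against 1.45% of all probe sets. At an unadjusted p under 0.05 the count was also 0. The share of all probe sets at an unadjusted p was not counted. Casp1 differed by 0.08 ± 0.11 in Fz4-/- cells and by -0.19 ± 0.11 in wild type cells, and Aim2 by 0.05 ± 0.13 and -0.04 ± 0.13. Ifi202b, at the floor in all of these cultures, gave no information on a response. Of the 6 shared probe sets 0 passed, in a fit over all probe sets that are not controls, for Norrin in Fz4-/- cells (0.18% of all did) or wild type cells (5.81%), for Matrigel in Fz4-/- (20.2%) or wild type cells (18%), or for the difference of these effects between the genotypes (1.17% and 0.0178%). The probe set 1451567_a_at of Ifi203 differed by -0.40 ± 0.12 in wild type cells (limma, adjusted p = 0.0751).

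**Figure D4:**
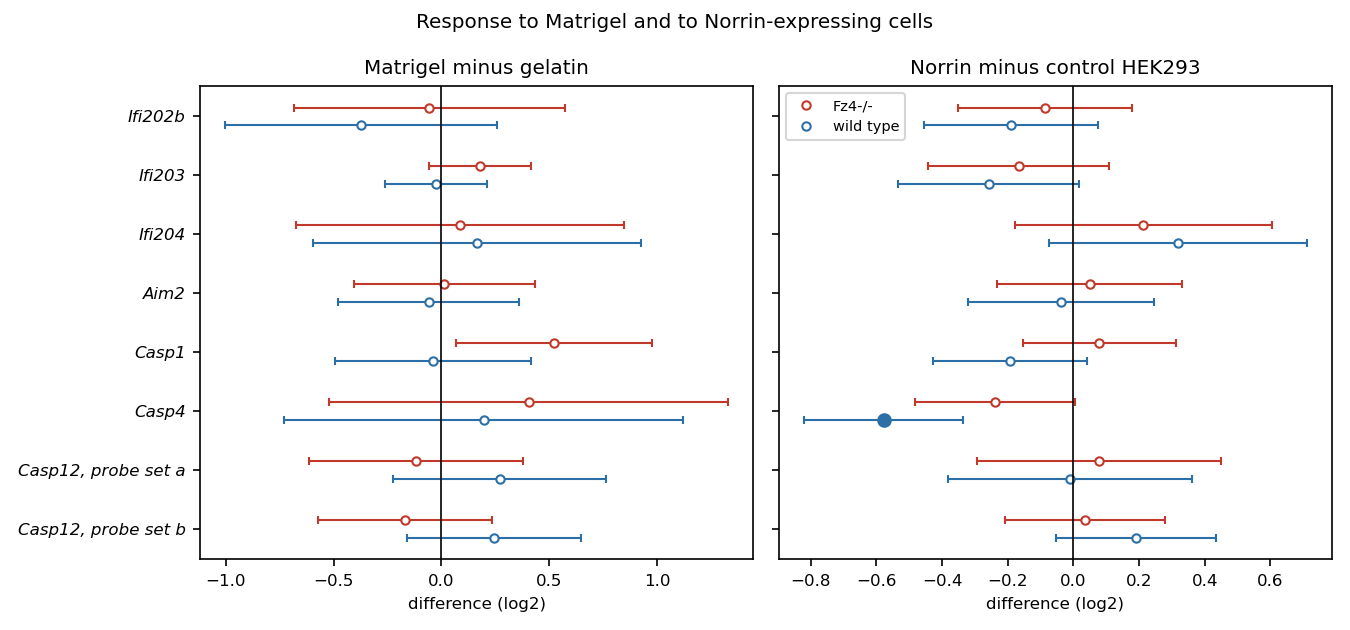
Change of each member probe set on the log2 scale, with 95% intervals from limma, for Matrigel minus gelatin (left) and Norrin-expressing minus control HEK293 cells (right), in Fz4-/- (red, upper of each pair) and wild type (blue) cells. A filled dot passed the adjusted threshold of 0.05: Casp4 with Norrin in wild type cells, at -0.58, is the single filled dot among 32.

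Genes that work with the members were read from fixed lists, a gene standing by its brightest probe set. Of 26 measured inflammasome sensors, adaptors and products (31 listed), 2 rose, 1 fell and 23 did not pass with Norrin in wild type cells, against 4.82% higher and 3.51% lower over all genes. Gsdme, a gasdermin, rose by 0.61 ± 0.14 and Nek7, a kinase needed by the NLRP3 inflammasome, by 0.55 ± 0.15, while Txnip, a thioredoxin-binding protein, fell by 0.53 ± 0.12 (limma, adjusted p = 0.0102, 0.0337 and 0.0134). In Fz4-/- cells 0 of 26 passed, where 0.154% of all genes rose and 0.154% fell. With Matrigel 2 rose and 1 fell in Fz4-/- cells, where 7.56% of all genes rose and 11.3% fell, and 1 rose and 1 fell in wild type cells, where 6.34% and 11.1% did. The fall in wild type cells was Il1rap, a subunit of the interleukin-1 receptor, by 1.00 (limma, adjusted p = 0.0241), and that in Fz4-/- cells was the receptor Il1r1, by 0.72 (limma, adjusted p = 0.00573).

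Il18, a caspase-1 substrate, was lower in Fz4-/- cells grown alone, at 6.82 against 8.05 in wild type on Matrigel and 6.63 against 7.91 in wild type on gelatin. Its soluble inhibitor Il18bp was lower by -1.59 and -1.60. Gsdmd, a gene for another substrate, differed by 0.09 ± 0.15 on Matrigel, -0.06 ± 0.15 on gelatin, 0.15 ± 0.13 with Norrin-expressing cells and -0.00 ± 0.13 with control cells. Il1b differed by 0.04 ± 0.10 and -0.07 ± 0.10 in cells grown alone and by -0.89 ± 0.11 and -0.72 ± 0.11 in co-culture, in the same order. The adaptor gene Pycard differed by -0.18 ± 0.69, -0.25 ± 0.69, 0.28 ± 0.15 and 0.45 ± 0.15. Of the 26 genes 3 were higher and 4 lower in Fz4-/- without overlap on Matrigel, against 16.4% and 16.3% of all genes, and 4 higher and 7 lower on gelatin, against 16% and 16.6%.

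Of 13 measured genes of cytosolic DNA sensing, 1 fell and 12 did not pass with Norrin in wild type cells, where 3.51% of all genes fell and 4.82% rose. The counts were the same in Fz4-/- cells, where 0.154% of all genes fell and 0.154% rose. It was Ikbke, a kinase of interferon and NF-kB signalling, which fell by 0.80 ± 0.14 in Fz4-/- cells and fell by 1.61 ± 0.14 in wild type cells (limma, adjusted p = 0.0256 and 2.11e-06). In cells grown alone 7 of the 13 were lower in Fz4-/- and 0 higher in both cultures, against 16.3% lower and 16.4% higher of all genes on Matrigel and 16.6% and 16% on gelatin, among them Zbp1, a sensor of Z-form nucleic acid (-3.17 and -3.24), Dhx58 (-2.69 and -2.87) and Irf7 (-2.70 and -2.70), while Cgas, the enzyme that makes the messenger sensed by Sting1, differed by -0.81 and -0.89. Of 15 interferon receptors and signalling genes, 1 fell and 0 rose with Norrin in wild type cells, against 3.51% and 4.82% of all genes. It was Ifnar2, a chain of the type I interferon receptor, which fell by 1.00 ± 0.11 (limma, adjusted p = 1.99e-05). Its effect differed between the genotypes by 0.75 (limma, adjusted p = 0.0207).

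With Norrin in wild type cells 4.82% of all genes rose and 3.51% fell. Of 23 measured gamma interferon response genes 10 rose, 0 fell and 13 did not pass there, with the GTPases Gbp6 (1.40 ± 0.10) and Irgm1 (1.24 ± 0.13) as examples. Of 23 type I interferon response genes 3 rose, 3 fell and 17 did not pass, with Oas3 falling by 0.86 ± 0.12. Of the 4 other Ifi200 genes, 0 rose and 1 fell, Ifi207 by 0.65 ± 0.12 (limma, adjusted p = 0.00278). In Fz4-/- cells, where 0.154% of all genes rose and 0.154% fell, the counts were 0 of 23, 1 of 23 (Rsad2, an antiviral enzyme, by 0.65) and 0 of 4. Of 7 apoptotic and other caspase genes, 0 passed with Norrin in either genotype. With Matrigel 1 rose and 1 fell in Fz4-/- cells, where 7.56% and 11.3% of all genes did. In wild type cells 0 rose and 1 fell, against 6.34% and 11.1% of all genes. The gene that fell was Cflar, a caspase-8 inhibitor, by 0.66 in Fz4-/- and 0.59 in wild type cells (limma, adjusted p = 0.000467 and 0.00106).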

How the data were processed

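Total RNA was measured on 24 Affymetrix mouse arrays, 3 in each of 8 groups. The authors deposited 1 log2 value per probe set and array, processed with RMA (version not given) per the submitters' processing notes. Which arrays were normalized together is not given in the sources used here. Gene symbols came from the platform's annotation; of 45101 probe sets, those for controls (64), for several symbols (932) or for no symbol (9160) were left out, and 34741 of the 34945 kept were matched by gene ID to RefSeq on GRCm38.p6. The values of each group were fitted as means in limma 3.58.1 (R 4.3.3), in one fit of the 12 arrays of cells grown alone and another of the 12 co-culture arrays, with 8 residual degrees of freedom each; p-values were adjusted by Benjamini-Hochberg over all 34945 probe sets. Shared probe sets were read from a fit over all 45037 that are not controls, an alternative chosen after seeing the data. The number of arrays limits the precision; an exact two-sided permutation test of 3 and 3 arrays cannot go below p = 0.1. The members and the 11 gene lists (181 genes, 158 measured) were chosen with earlier results of these data known. Genes named are the members, Fzd4, defining markers, their neighbours by annotated order, for list genes up to 3 with the largest change past the threshold in a tested comparison or difference between the genotypes, and a few in addition that were picked after their values were seen (Gsdmd, Il1b, Pycard, Cgas). Lists of marker genes of pericytes and of retinal neurons and glia were read as checks. Norrin in wild type gave 1 up and 1 down of 10, and 0 of 11, against 4.82% up and 3.51% down of all genes. Whether arrays of equal number are pairs was read from the correlation, over probe sets, of deviations from group means: for Matrigel it was 0.35 to 0.62 in Fz4-/- and 0.31 to 0.68 in wild type cells, and for Norrin -0.16 to 0.01 and 0.09 to 0.33. The best match was the own number in 4 of 6 cases in Fz4-/- and 2 of 6 in wild type cells for Matrigel, and in 0 of 6 and 4 of 6 for Norrin. In cells grown alone replicate 1 lay further from replicates 2 and 3 than these from each other. Pairing and an offset shared by the replicate 1 arrays therefore cannot be told apart. Only the numbers of the Matrigel comparison were read as possible pairs. The fit was tested on simulated data of 34945 probe sets, of which 100 were changed. It recovered 79% of changes of 1 log2 and 99% of 2 log2 for Matrigel in wild type, and 95% and 100% for Norrin in wild type. In the data 17.2% and 7.17% of probe sets were called in these comparisons, so the recovery there can differ. Alternatives were quantile normalization, median centring, 1 probe set a gene, no cross-hybridizing probe sets, a filter on dim probe sets, a trended variance, the replicate block, leaving out arrays, and averaging replicates 2 and 3. Figures and motif searches used matplotlib 3.10.9, numpy 2.4.6 and pandas 2.3.3 under Python 3.11.15.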

Additional observations from a re-analysis of the deposited data

How the results depend on the processing

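The count of members past the threshold for Matrigel in Fz4-/- cells was 0 and became 1 with the replicate block (27.4% of all probe sets passed; Casp4, 0.41, adjusted p = 0.0268) and 2 without replicate 1 of every group (28.4% passed; Casp4, 0.34, adjusted p = 0.0162, and the Casp12 probe set 1449297_at, -0.25, adjusted p = 0.0264). The block changed no other member's call, and for Norrin, where the numbers were not taken as pairs, it left 1 and 0 members called. The Norrin count in wild type cells became 0 with replicates 2 and 3 averaged (Casp4, -0.62, adjusted p = 0.0593), and the range of Casp4's adjusted p over its other alternatives was 0.000503 to 0.0189. Leaving out each gelatin array in turn gave a genotype count of 4 to 7 there, the 7 being without replicate 1 of wild type (45.7% of all probe sets then did not overlap), and leaving out that number from every group gave 8 (60.5%). Ifi202b in co-culture, whose genotypes overlap, turned to 0.07 and 0.05 with control cells and to 0.19 and 0.17 with Norrin-expressing cells after quantile normalization and median centring; no other member's genotype difference in co-culture turned with these. Over all probe sets the calls varied by over 1.5 times: for Norrin in wild type 2507, with 853 when replicates 2 and 3 were averaged; in Fz4-/- 69, with 11; for Matrigel in wild type 5997, with 638 then and 9083 without replicate 1 of every group; in Fz4-/- 6674, with 1244; for the differences between the genotypes in these effects 506, with 68, and 6, with 0 to 80. The cause was not tested, beyond the smaller number of samples where arrays were averaged. With 3 arrays per group and values near the floor, small changes of Ifi202b, Aim2 and wild type Casp1 cannot be resolved.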

Other observations

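Of 4165 probe sets at or above the 90th percentile of their arrays in wild type cells on both Matrigel and gelatin, 10 (0.24%) lay at or below the 40th percentile in both wild type co-cultures, and both Ifi202b probe sets were among them. The others with a name were Hoxd8, Ccn3, Prdm8, Sh2d5, Uchl1, Xaf1 and the set shared by Lilrb4a and Lilr4b. In Fz4-/- cells 0 of 4122 did so. These bounds were chosen after the values were seen, and they compare ranks within arrays because the sets of arrays are not on a common scale. Xaf1, an interferon-inducible gene, had its mean at 10.65 in Fz4-/- and 11.30 in wild type cells on Matrigel, and at 9.10 in Fz4-/- and 2.83 in wild type cells with control HEK293 cells. Whether the wild type line of the co-cultures was the line grown alone is not given in the labels.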
